A study of Homo sapiens with 191 samples.

Results

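Pre-mRNA splicing is carried out by the spliceosome, which is built from small nuclear RNAs, the Sm and snRNP-specific proteins that coat them, and further proteins that join at each step. SR proteins bind exonic sequences and recruit this machinery through their arginine and serine rich domains, whereas the heterogeneous nuclear ribonucleoproteins (hnRNPs) coat nascent RNA and often oppose exon inclusion. These genes are used by nearly every dividing cell, and lymphoblastoid cells divide continuously. The genes described here were the protein-coding genes whose symbols begin with SRSF and a digit, SF3A or SF3B and a digit, SNRP, PRPF or HNRNP, with hyphenated read-through genes left out. They were 70 of 20090 annotated protein-coding genes and comprised 12 SRSF, 9 SF3A or SF3B, 12 SNRP, 13 PRPF and 24 HNRNP genes.

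The cells were GM12878, a B lymphoblastoid line made by transforming B cells of 1 donor with Epstein-Barr virus. They were fixed, permeabilised and transposed in bulk without antibody staining, then sorted singly into wells, which gave 96 libraries on plate 1 and 95 on plate 2. All libraries belonged to 1 group with no treatment and no control, and the deposited list of 50000 accessible regions was made from the cells pooled. Each region therefore had 1 score, the authors' -log10 of the q-value of its summit, and no value per cell or per plate.

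A region was called a promoter region of a gene when its centre lay within 1 kb of any annotated transcription start site (TSS) of that gene. Scores in the list ran from 16.0 to 4438 with a median of 31.6. Because there were no replicates and depth was unknown, no test was made. Shares stand beside the same share over all protein-coding genes. Where an interval is given, it is an exact Clopper-Pearson 95% interval, which covers counting error only, since genes are not replicates. For shares without an interval the counting error is not shown. Of 10 B cell markers 8 had a promoter region, among them BLK, POU2AF1, EBF1, MS4A1 and PAX5, while CD22 did not. Of 10 markers of other cell types 2 had one, CD14 and EPCAM, each at a score of 33.1.

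A promoter region was present at 63 of the 70 splicing genes (90%, interval 80.5 to 95.9), beside 57.2% of all protein-coding genes. It lay in the upper quartile of the list, at a score of 74.9 or more, for 55 members (78.6%), beside 36.9% of all genes. The median score of the strongest promoter region was 209.8 over the 63 members and 129.6 over the 11499 genes that had one. PRPF and SNRP genes all had a promoter region, and the genes without one were SRSF12, SF3A1, SF3A2 and 4 hnRNP-like genes, HNRNPA1L2, HNRNPA1L3, HNRNPCL1 and HNRNPCL2. Only 3 members (4.29% of the 70) had no region anywhere in the gene and the 10 kb on each side, beside 25.3% of all genes.

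**Figure D1:**
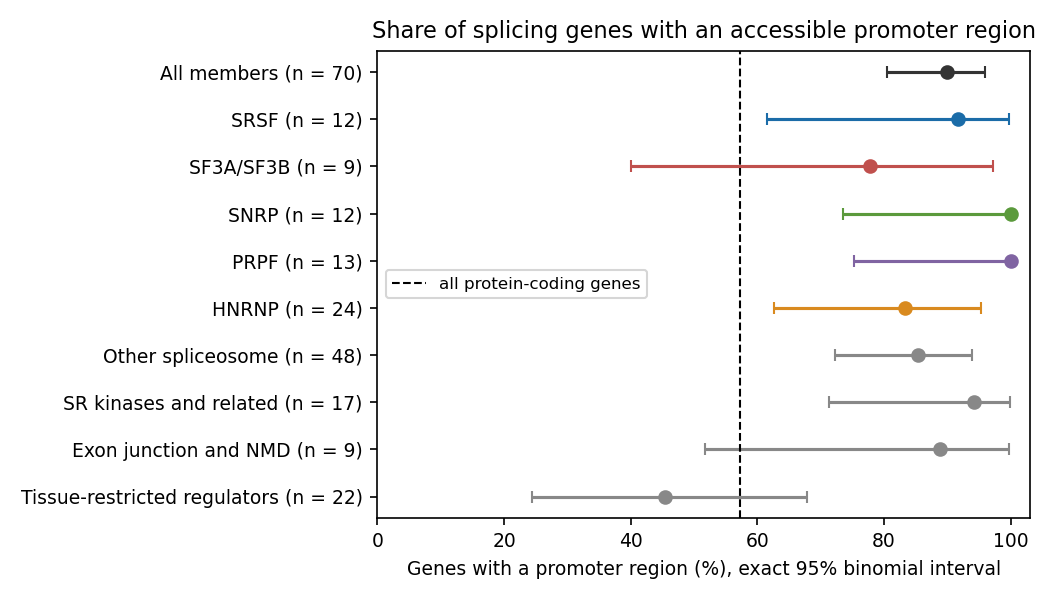
Percentage with a promoter region (x axis) for the 70 members, their 5 subfamilies and 4 related gene lists, with exact 95% binomial intervals; the dashed line marks all protein-coding genes. The members stand at 90% and the line at 57.2%, while the tissue-restricted regulators stand at 45.5% with an interval that spans the line.

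The sequences below are stretches from strong promoter regions, 1 for each subfamily. Each is the reference sequence nearest to the region centre that lies outside every annotated exon, at most 150 bases, on the strand of the gene in build GRCh37 (hg19). Capitals mark the consensus motifs found. PRPF38B is shown for the PRPF genes.
SRSF11, chr1:70671263-70671364, plus strand, ending 1 base before a TSS: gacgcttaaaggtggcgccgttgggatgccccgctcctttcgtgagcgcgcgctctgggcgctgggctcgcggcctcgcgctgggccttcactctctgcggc
SF3B5, chr6:144416775-144416924, minus strand: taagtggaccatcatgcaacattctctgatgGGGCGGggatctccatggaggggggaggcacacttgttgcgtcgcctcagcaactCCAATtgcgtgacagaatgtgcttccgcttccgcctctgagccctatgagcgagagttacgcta
SNRPB2, chr20:16710526-16710605, plus strand, ending 1 base before a TSS: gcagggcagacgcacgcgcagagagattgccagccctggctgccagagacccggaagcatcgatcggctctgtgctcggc
PRPF38B, chr1:109234811-109234931, plus strand, ending 1 base before a TSS: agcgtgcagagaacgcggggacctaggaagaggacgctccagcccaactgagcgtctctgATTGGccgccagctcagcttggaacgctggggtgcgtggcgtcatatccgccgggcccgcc
HNRNPD, chr4:83295153-83295271, minus strand, ending 1 base before a TSS: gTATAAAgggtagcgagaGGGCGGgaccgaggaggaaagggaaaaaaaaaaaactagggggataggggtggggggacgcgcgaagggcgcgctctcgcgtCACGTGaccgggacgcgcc
The 5 stretches differ in their motifs. SRSF11 and SNRPB2 held none of the 10 searched, SF3B5 held an NFY and an SP/KLF match, and PRPF38B an NFY match. HNRNPD held an SP/KLF match, an E-box and a TATA box. The TATA box match of HNRNPD lay 29 bp downstream of its nearest annotated TSS, which is not the TSS that the stretch ends at.

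Among the SR proteins, 11 of 12 had a promoter region (91.7%, interval 61.5 to 99.8), with a median score of 165.8 and a range of 91.3 to 901.5. SRSF11, an SR-related protein, had the strongest at 901.5 (chr1:70671100-70671600), with its centre 15 bp upstream of a TSS. A further region of SRSF11 lay 15763 bp away at another annotated TSS of the gene and scored 488.2. SRSF7, which also takes part in mRNA export, followed at 466.4, and SRSF8, a retrotransposed relative of SRSF2, at 248.8. SRSF4, among the longest of the SR proteins, scored 214.1. The weakest of the 11 were SRSF2, a nuclear speckle protein that binds exonic enhancers, at 91.3, and SRSF9 at 102.5. Both still lay in the upper quartile of the list, as did the strongest promoter region of each of the 11 genes. However, both scored below the median of 129.6 over all genes with a promoter region. The SRSF9 region of 102.5 was also counted at DYNLL1. A further region of SRSF9, centred 28 bp upstream of another annotated TSS, scored 45.8 and lay below the upper quartile.

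SRSF12 was the SR gene with no promoter region. Its closest listed region was 24112 bp away, and no region lay within the gene or its 10 kb flanks. The 501 bp around its outermost TSS held 60 CpG dinucleotides, against a median of 33 over all genes, and had a GC content of 75.1%. SRSF10, a related splicing regulator that represses splicing when dephosphorylated, had 5 regions in the gene and its flanks. Of these, 2 were its own promoter regions, the stronger at 119.8, and the others lay at the promoter of PNRC2.

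The U2 snRNP binds the branch point, where its SF3A and SF3B complexes hold the RNA. All 6 SF3B genes had a promoter region, whereas of the 3 SF3A genes SF3A3 had one and SF3A1 and SF3A2 did not. The difference between the complexes was not tested, and with 3 genes the interval of the SF3A share ran from 0.840% to 90.6%. The SF3B scores fell into a high and a low set. SF3B5, a small subunit, had the highest score of the SF3A and SF3B genes at 1101 (chr6:144416600-144417100). SF3B6, which contacts the branch point adenosine, scored 798.9 and SF3B1, the subunit mutated in several blood cancers, 594.3. The other SF3B genes were far lower, SF3B3 at 87.6, SF3B2 at 45.8 and SF3B4 at 44.2, so that SF3B2 and SF3B4 fell below the upper quartile of the list. SF3A3 scored 83.9.

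SF3A1 on chromosome 22 had 1 region in its flanks, at a score of 27.2 and 13386 bp from its nearest TSS, and this region lay at the promoter of TBC1D10A. SF3A2 on chromosome 19 had 1 region, 8161 bp from its nearest TSS, in an exon downstream of the gene with a score of 24.3. The TSSs of both were rich in CpG, with 69 and 60 in 501 bp. Over all genes, a promoter region was found for 41.1% of those on chromosome 22 and 48.6% of those on chromosome 19. On chromosomes 17, 19 and 22 together the share was 46.0% with a median score of 57.4, and elsewhere it was 59.3% with a median score of 149.5. This grouping was not among the planned comparisons, and chromosomes 21 and X, counted as elsewhere, had shares of 44.5% and 46.4%. Of the members, 10 of 12 on these 3 chromosomes (interval 51.6% to 97.9%) and 53 of 58 elsewhere (81.0% to 97.1%) had a promoter region. Those without one on these 3 chromosomes were SF3A1 and SF3A2 themselves, so the members' counts add nothing on these 2 genes. The median scores of the members' strongest promoter regions were 145.7 on these chromosomes and 246.6 elsewhere. The part of the chromosome in the absence of SF3A1 and SF3A2 from the list was not tested.

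All 12 SNRP genes had a promoter region (interval 73.5% to 100%). They include all 8 that encode Sm proteins, which form rings around small nuclear RNAs other than U6. Their scores reached 378.3 at most, so none came near the leading genes of the other subfamilies, although the median of 174.1 was close to those of SRSF and PRPF. SNRPB2, the U2-B" protein, was the strongest. The Sm genes SNRPG and SNRPD1 followed at 320.5 and 284.3, and SNRPA, the U1-A protein, at 201.3. SNRPC, the U1-C protein that helps to recognise the 5' splice site, was among the weakest at 39.4.

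SNRPN had the lowest score of all 63 members at 24.3 (chr15:25200026-25200526). It encodes the Sm protein N, and it is an imprinted gene expressed from the paternal allele, with SNURF on the same transcript. A second promoter region scored 21.4 and lay 990 bp from the TSS, just inside the 1 kb limit, and a stronger region at 93.2 lay 1750 bp from the TSS, inside the gene and outside every exon. The call at SNRPN was lost when regions below the median score were left out, and also when the outermost TSS alone was used.

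All 13 PRPF genes had a promoter region (interval 75.3% to 100%), with a median score of 167.9. PRPF38B scored 463.9, PRPF4 of the U4/U6 snRNP 369.0 and PRPF39, a U1-associated protein, 302.3. PRPF8, the scaffold of the catalytic centre, had the weakest promoter region of the PRPF genes at 42.5, and PRPF40B scored 52.4. For PRPF4B, a kinase of the assembling spliceosome, the promoter region scored 246.6. A stronger region of 505.2 lay 2580 bp upstream of its nearest TSS (this region was singled out after its values were seen). The centre of this stronger region fell in an annotated exon outside PRPF4B.

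The HNRNP genes had the highest median score of the 5 subfamilies, 517.5 over the 20 of 24 with a promoter region, and 12 of these 20 scored at least 485.7. HNRNPD, which binds AU-rich elements, led at 1060 (chr4:83295125-83295625), followed by HNRNPA3 at 1025, HNRNPDL at 804.1 and HNRNPC, which binds uridine tracts, at 662.4. HNRNPD and HNRNPDL are paralogues and neighbours on chromosome 4. The lowest scores were those of HNRNPLL at 39.4, a regulator of CD45 splicing in lymphocytes, and of HNRNPM at 127.6. HNRNPLL was thus the only HNRNP gene whose strongest promoter region lay below the upper quartile. The difference in score between the subfamilies was not tested.

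The 4 HNRNP genes without a promoter region were the near copies HNRNPA1L2, HNRNPA1L3, HNRNPCL1 and HNRNPCL2, and without them the count was 20 of 20. The closest regions lay 10317, 3577, 224657 and 500410 bp from their TSSs. At HNRNPA1L2 the closest region was the promoter of SUGT1, at 992.3. The 501 bp around the outermost TSS of the 4 genes held between 2 and 10 CpG, unlike SRSF12, SF3A1 and SF3A2 with 60 to 69. Removal of low-quality alignments can lower the reads at near-identical copies, and its part in these calls was not tested.

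**Figure D2:**
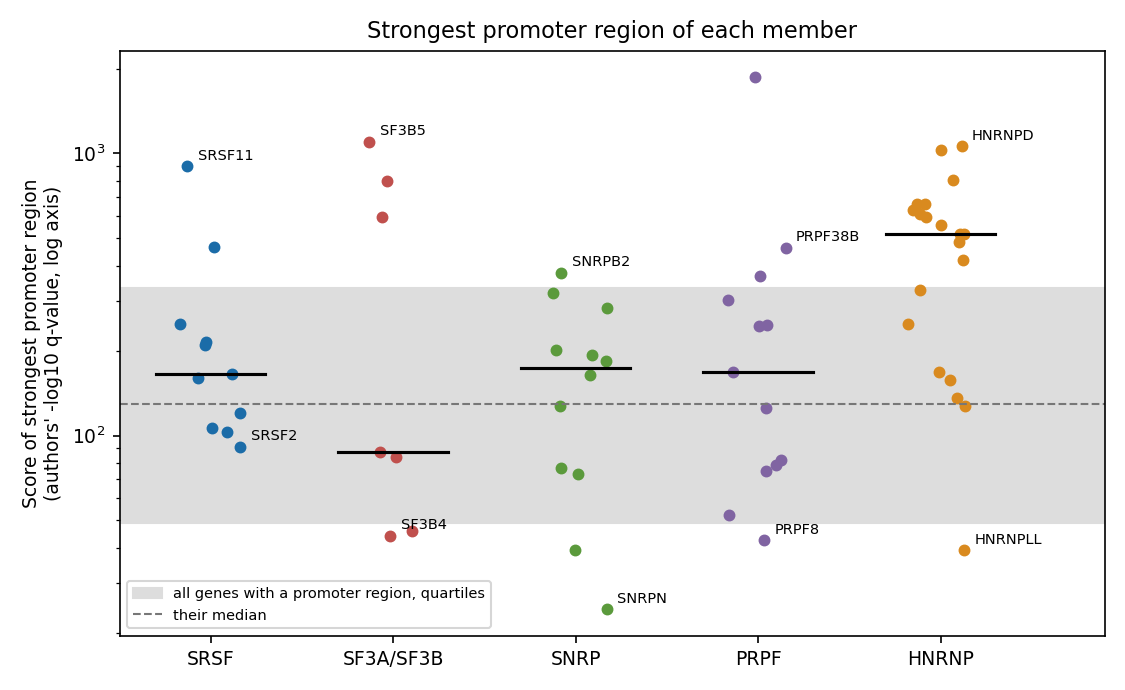
Score of the strongest promoter region of each of the 63 members (points; y axis, authors' -log10 q-value on a log axis) by subfamily, with the subfamily median as a black bar; the grey band spans the quartiles of all genes with a promoter region and the dashed line their median. The HNRNP median of 517.5 lies above the band, while the SF3A/SF3B genes split into 3 above it and 4 at 87.6 or below.

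CpG content moved with the calls. Around the outermost TSS the members had a median of 38 CpG and all genes 33. Among genes with 33 or more, 50 of 53 members (94.3%) had a promoter region beside 73.0% of all genes, and among those with fewer, 13 of 17 members (76.5%) beside 41.0%. The GC content of the strongest promoter region had a median of 60.3% over the members and 64.3% over all genes. The part of CpG content in the members' share was not tested.

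The strongest promoter region was centred upstream of the nearest TSS for 52 of the 63 members (82.5%), beside 69.9% of all genes with one. The median offset was -71 bp for members and -51 bp for all genes, and the centre was within 200 bp of a TSS for 56 members (88.9%) beside 78.2%. All 7 SF3A and SF3B genes were centred upstream, with a median of -128 bp. The exceptions in distance were few. SNRPD3, a core Sm gene, had its region 674 bp upstream at a score of 163.8, close to GUCD1, and lost its call with a window of 500 bp. HNRNPUL1 and HNRNPL were centred 488 and 388 bp upstream, and SRSF8 345 bp downstream.

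**Figure D3:**
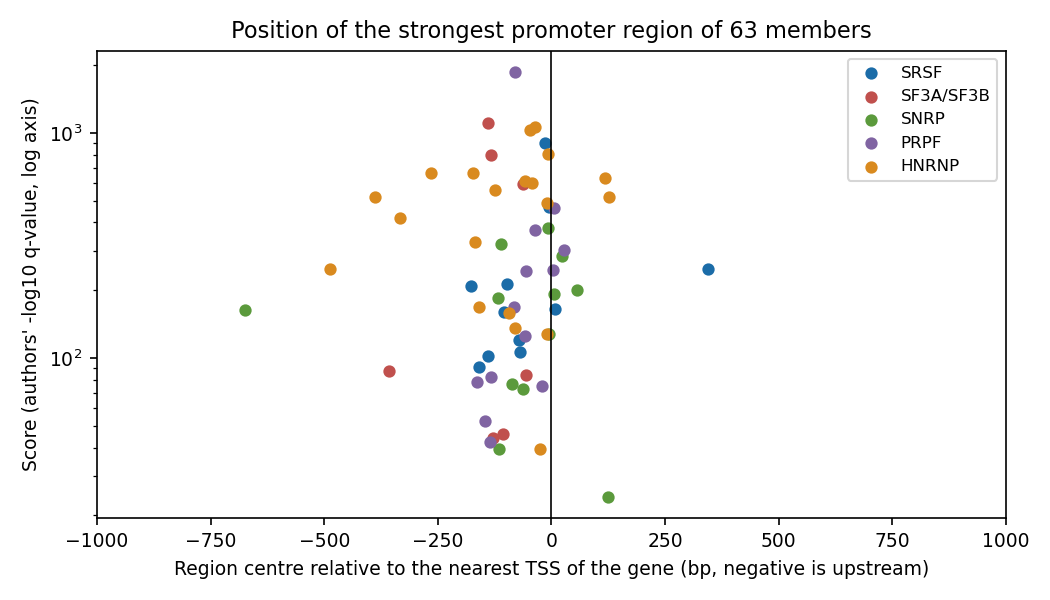
Centre of the strongest promoter region relative to the nearest TSS of the gene (x axis, bp, negative is upstream) against its score (y axis, authors' -log10 q-value on a log axis) for the 63 members, coloured by subfamily. Of the points 52 lie upstream and 56 within 200 bp of the TSS, with SNRPD3 farthest out at -674 bp.

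The strongest promoter region was shared with another protein-coding gene, in that its centre also lay within 1 kb of a TSS of that gene, for 24 of the 63 members (38.1%), beside 27.6% of all genes with a promoter region. No interval is given for this share. Sharing was counted for 6 of 11 SRSF, 2 of 7 SF3, 4 of 12 SNRP, 6 of 13 PRPF and 6 of 20 HNRNP genes. SRSF1 and SRSF6 shared theirs only with genes that have no symbol. SNRPN counted through SNURF, on the same transcript, and a gene without a symbol. With partners that have a symbol only, an unplanned alternative, the members' count was 22, and the share of all genes is not given for it. Among the strongest shared regions were those of SRSF11 with LRRC40, HNRNPDL with ENOPH1, SF3B6 with FAM228B, HNRNPK with RMI1, HNRNPA2B1 with CBX3, HNRNPH2 with GLA and SRSF7 with GEMIN6. GEMIN6 belongs to the SMN complex, which loads Sm proteins onto small nuclear RNAs, so that an SR gene and a snRNP assembly gene had 1 region in common. In the list a region shared by 2 genes carries 1 score and does not tell which gene it serves.

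HNRNPA1 and HNRNPA2B1, hnRNP A/B proteins that act in splice site choice, each shared their region with a gene for heterochromatin protein 1 (HP1), which binds methylated histone H3. HNRNPA1 scored 418.4 and shared its region with CBX5, which encodes HP1 alpha, and HNRNPA2B1 scored 559.4 with CBX3, which encodes HP1 gamma. This pair of pairs was picked out after the values were seen. The stretch at the centre of the HNRNPA1 region is shown because it served both genes in the count. It lies upstream of HNRNPA1 and inside CBX5, which runs the other way and whose outermost TSS lies between the stretch and HNRNPA1. It holds 2 NFY matches and 1 SP/KLF match in capitals.
HNRNPA1, chr12:54673569-54673718, plus strand, from -408 to -259 bases of the nearest annotated TSS of HNRNPA1: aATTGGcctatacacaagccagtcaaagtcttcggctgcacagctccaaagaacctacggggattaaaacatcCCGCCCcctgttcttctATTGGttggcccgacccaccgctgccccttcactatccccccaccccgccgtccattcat
For HNRNPA2B1, annotated exons left no stretch long enough to show.

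At least 2 promoter regions were found for 37 of the 70 members (52.9%), beside 24.2% of all genes. The share was highest for HNRNP, at 17 of 24, and SRSF had 8 of 12. The members have more annotated TSSs, with a median of 8 beside 5 for all genes, and the HNRNP genes without the near copies have 12. When several summits of 1 called peak were counted once, the members' count became 17 (24.3%, all genes 13.6%), and with the outermost TSS alone it became 24 (34.3%, all genes 15.1%). For 9 members the promoter regions formed 2 groups more than 2 kb apart, namely SRSF3, SRSF9, SRSF11, SF3B3, PRPF8, PRPF40B, HNRNPA1, HNRNPC and HNRNPF. In several of these the second group was weak, as at SRSF3 with 159.7 and 31.6, SF3B3 with 87.6 and 20.0 and HNRNPA1 with 418.4 and 21.4. SRSF11 and HNRNPF were the genes of the 9 in which both groups reached a score of at least 380.7.

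HNRNPF, which binds G tracts, had the most regions of any member, 13 in the gene and 10 kb on each side, from 9 called peaks. Its 6 promoter regions fell into a group of 3 at the outermost TSS, scoring 485.7, 186.6 and 133.5, and a group of 3 about 12 kb into the gene, scoring 380.7, 133.5 and 47.4. The gene has annotated TSSs at both places. Between and beyond the groups lay weaker regions of 18.7 to 34.7, and 1 of 216.3 lay upstream, at -9.07 kb from the outermost TSS.

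**Figure D4:**
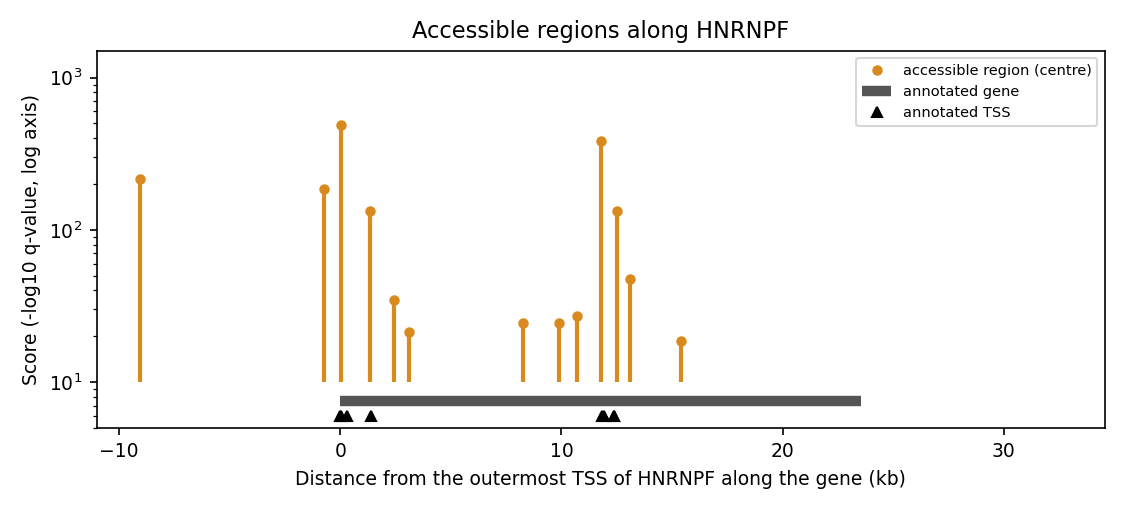
Accessible regions along HNRNPF, with distance from its outermost TSS along the gene on the x axis (kb) and score on the y axis (authors' -log10 q-value, log axis); triangles mark annotated TSSs and the bar the annotated gene. The regions of 485.7 and 380.7 each stand at a cluster of TSSs, and the 13 regions leave the 3' end of the gene empty.

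Members had a median of 2.5 regions in the gene plus 10 kb and all genes 2, while the median gene span was 16471 bp for members and 27257 bp for all genes. After HNRNPF, the most regions were 7 at HNRNPA2B1 and 6 each at PRPF6, HNRNPK and HNRNPU, and SRSF10 and HNRNPUL1 were among the members with 5. Many of these belonged to neighbours. Of the 6 at HNRNPU, a nuclear scaffold protein, 3 lay at the promoter of COX20, the strongest at 579.3, and 2 were its own at 596.8 and 195.0. At PRPF6, which bridges the tri-snRNP, its own promoter region scored 82.1, and 3 of the other 5 lay at promoters of neighbours. HNRNPK, a poly-C binding protein, had 3 of its own, the strongest at 632.0, and 3 regions of at most 28.6 in its downstream flank. At HNRNPA2B1, 3 regions lay inside the gene outside exons, each at 30.1 or less.

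Of all regions in the members and their 10 kb flanks, 60.3% were promoter regions of the member itself, beside 37.3% over all protein-coding genes counted in the same way. Another 30 regions lay at the promoter of another gene, 9 in an exon of any gene, 15 inside the member outside exons and 21 in the flanks. Regions inside the member outside exons made up 7.94% of the members' regions, beside 31.1% over all genes, whose median span is longer. At least 1 region in an exon of any gene or inside the gene, away from promoters, was found for 16 members (22.9%), beside 31.5% of all genes. These differences were not tested.

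Of 10 consensus motifs, searched on both strands in the 501 bp of the strongest promoter regions, the commonest were SP/KLF (GGGCGG), in 46 of the 63 members (73.0%) beside 79.7% of the 9930 distinct strongest promoter regions of all genes, and NFY (CCAAT), in 40 (63.5%) beside 46.5%. ETS (CCGGAAGT) was in 14 (22.2%, interval 12.7 to 34.5) beside 9.87%, and the TATA box (TATAAA) in 10 (15.9%, interval 7.88 to 27.3) beside 6.90%. The E-box (CACGTG) was also in 10, beside 14.2%. NRF1 (GCATGCGC) was in 7 (11.1% beside 6.81%), YY1 (AAGATGGC) in 6 (9.52% beside 6.80%) and ZBTB33 (TCTCGCGAG) in 3 (4.76% beside 1.74%). CRE (TGACGTCA, 3.87% of all) and ZNF143 (ACTACAATT, 0.806% of all) were in none. A match is a description of the letters and neither a bound site nor a cause, and a motif that is absent says only that these letters are not in the window. By subfamily, SP/KLF was in 19 of 20 HNRNP regions, and ETS was in 5 of 7 SF3A and SF3B regions.

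**Figure D5:**
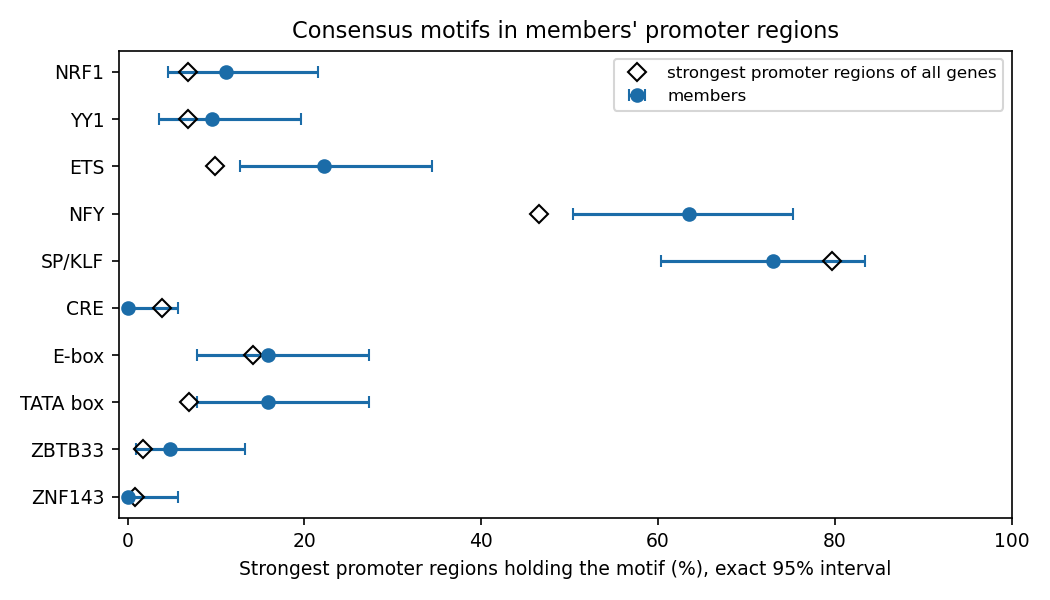
Share of strongest promoter regions that hold each of 10 consensus motifs (x axis, percent) in the 63 members (filled circles with exact 95% binomial intervals) and in all genes (open diamonds). The diamonds for ETS, NFY and the TATA box lie below the members' intervals, and CRE and ZNF143 are at 0 in the members.

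ETS and YY1 matches occurred together in 3 members (4.76% of 63, beside 0.906% of all regions), and these were SF3B2, SF3B3 and SF3B4, the SF3B genes with the low scores of 45.8, 87.6 and 44.2. The combination was looked at after the values were seen. The sites are shown because all 3 genes encode subunits of 1 complex; each line is 30 bases on the strand of the gene in GRCh37, with the match in capitals.
SF3B2 ETS, chr11:65819771-65819800, plus strand: atacggcgccaCCGGAAGTtccggcaagtg
SF3B2 YY1, chr11:65819842-65819871, plus strand: ttcctgcggctAAGATGGCgacggagcatc
SF3B3 ETS, chr16:70557441-70557470, plus strand: ccccattcggcACTTCCGGtcccgcgaggc
SF3B3 YY1, chr16:70557419-70557448, plus strand: aatcaaggtccGCCATCTTggtccccattc
SF3B4 ETS, chr1:149899703-149899732, minus strand: ccgtcttcgccCCGGAAGTggaagtcgtgc
SF3B4 YY1, chr1:149899773-149899802, minus strand: cggaggctcctAAGATGGCtgcagccgctt
In SF3B2 and SF3B4 both matches were on the gene strand, 71 and 70 bp apart between their starts, but in opposite order, with the ETS match first in SF3B2 and the YY1 match first in SF3B4. In SF3B3 both matches were on the opposite strand and 22 bp apart, in a region shared with COG4.

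A TATA box on the gene strand that began 25 to 35 bp upstream of an annotated TSS was found in 4 members (6.35% of 63, beside 1.12% of the 11499 genes with a promoter region). They were SRSF2, SRSF3, SRSF7 and HNRNPAB, so that 3 of the 4 were SR genes. This window was also chosen after the values were seen. At SRSF3 the match lay 18 bp upstream of the nearest annotated TSS by its centre, and it met the window at another TSS of the gene. The members have a median of 8 annotated TSSs beside 5 for all genes, and the part of this in the count was not tested. The sites are shown on the strand of each gene with the match in capitals.
SRSF2, chr17:74733429-74733458, minus strand: ttgtgaggagcgaTATAAAcgggcgcagag
SRSF3, chr6:36562098-36562127, plus strand: ccagtatggcgTATAAAtaaaggcgaggag
SRSF7, chr2:38978514-38978543, minus strand: cagcggccgcataTATAAAcgcgaacccgg
HNRNPAB, chr5:177631494-177631523, plus strand: ggctccggcatTATAAAgggcgccacgagt
The scores of these 4 genes spanned a wide range, from 91.3 at SRSF2 through 135.5 at HNRNPAB and 159.7 at SRSF3 to 466.4 at SRSF7.

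Other genes of the splicing pathway were read against the members. Of 48 further spliceosome genes 41 had a promoter region (85.4%, interval 72.2 to 93.9), with a median score of 220.6. LSM8, of the LSM ring on U6, led at 1363, followed by PLRG1 of the PRPF19 complex at 960.1, the helicase DHX38 at 811.9 and LSM5 at 788.5. Those without were DDX39B, DHX16, EFTUD2, LSM7, SART1, SNRNP35 and XAB2. Of 17 kinases of SR proteins and SR-related genes 16 had one, all but the kinase SRPK3, with PNISR at 783.3, SCAF8 at 542.1, ACIN1 at 534.7 and TRA2B at 510.1 the strongest. Of 9 genes of the exon junction complex and nonsense-mediated decay 8 had one, with UPF2 the highest at 510.1 and EIF4A3 the one without.

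Splicing regulators known from brain, muscle or epithelium differed in their share. Of 22 such genes 10 had a promoter region (45.5%, interval 24.4 to 67.8), and their median score was 108.3. Under the alternatives the count ran from 7 with the outermost TSS alone to 12 with a window of 2.5 kb. ESRP1 had its closest region 1011 bp from a TSS, just outside the 1 kb limit. KHDRBS2 at 609.3 and PTBP2 at 468.8, both known for roles in neurons, were the strongest, ahead of ESRP2 at 199.2 and ELAVL2 at 137.5. The difference from the members was not tested.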

How the data were processed

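The data were single-cell ATAC-seq libraries of GM12878 cells, and the processed file was 1 list of regions made from the pooled cells. According to the methods, reads were adapter-trimmed and aligned to hg19 by the authors, who dropped alignments of low quality, duplicates and mitochondrial reads, called summits on the aggregate and retained the 50000 with the lowest q-value at a fixed width. Tools credited to the processing notes of the submitters are Bowtie2 2.1.0, Picard 1.79 and MACS2, with no version of MACS2 stated. The deposited score is the -log10 of the q-value, taken as such from the methods, since the file has no header. It is not scaled for depth, which is unknown, and ranks regions only.

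Regions were placed by their centres on GENCODE 44 genes mapped to GRCh37, whose chromosome lengths contain all regions. Shares, Clopper-Pearson intervals, exact-match motif searches and figures were made with Python 3.11.15, numpy 2.4.6, scipy 1.17.1 and matplotlib 3.10.9, and the placement and motif steps were tested on simulated data. The members and gene lists were chosen with earlier results of these data known. Named were, per subfamily, the 4 strongest and 2 weakest members and those without a promoter region, then the 6 members with most regions and the 8 strongest shared regions, and, of other lists, the 4 strongest and up to 6 without one. EFTUD2, DDX39B and the other spliceosome genes without a region are named in full, as are members whose values a sentence singles out. Alternatives changed the window, the TSS set, the score limit, the overlap, the flank and the motif window. No comparison between samples was possible with 1 group and pooled values. Some results that the rule for named genes would include are not reported here.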

Additional observations from a re-analysis of the deposited data

How the results depend on the processing

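The count of members with a promoter region stayed between 59 and 63 under the 6 alternatives: a window of 500 bp lost SNRPD3, the outermost TSS alone lost HNRNPH1, SF3B2, SNRPN and SRSF5, and leaving out regions below the median score lost SNRPN. The share of all genes moved more than its counting interval, to 54.8% at 500 bp, 60.3% at 2.5 kb, 49.2% with the outermost TSS, 55.6% with protein-coding transcripts only, 48.9% at or above the median score and 57.9% with any overlapping base. The median number of regions per member became 1 with no flank and 5 with 50 kb, beside 1 and 4 for all genes. In a search of the middle part of each region alone, NRF1 was held by 4 members (6.35%, all genes 4.12%), YY1 by 3 (4.76%, 3.25%), the E-box by 6 (9.52%, 7.32%) and the TATA box by 5 (7.94%, 2.17%), so the shares over all genes were lower there as well. With alternatives chosen after seeing the data, members with at least 2 promoter regions numbered 17 with the summits of a peak counted once and 24 with the outermost TSS. In all, 71 recomputed values stayed within 1.5 times the reported count or within its spread, and 14 were counted as moved. The limit is wide: the 71 include NFY at 27 members in the middle part against 40, and the tissue-restricted regulators at 7 against 10 with the outermost TSS. Pooled calls without depth set no limit on how weak a promoter must be to go unlisted, so absence from the list is not absence of accessibility.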
